A study of Mus with 21 samples.

Results

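Contactins and contactin-associated proteins are neuronal cell-surface molecules of the immunoglobulin and neurexin-like families, and 10 of their genes were followed through the brains of mouse embryos with reduced cohesin loading or release. The genes were taken from the deposited count table by gene name, as 10 of its 55335 rows, and comprised the contactins *Cntn1*, *Cntn2*, *Cntn3*, *Cntn4*, *Cntn5* and *Cntn6* and the contactin-associated genes *Cntnap1*, *Cntnap2*, *Cntnap4* and *Cntnap5a*. All 10 were among the 30552 genes with enough counts to be tested. Poly(A) RNA was sequenced from whole brains of female embryos at E17.5, 1 library per embryo, with 25682566 to 35818767 counted reads in each of 21 libraries. There were 5 *WT* libraries (*Wapl*+/+ *Nipbl*+/+), 7 *Wapl* delta/+ libraries (*Nipbl*+/+), 3 *Nipbl*+/- libraries (*Wapl*+/+) and 6 double heterozygotes (*Wapl* delta/+ *Nipbl*+/-). *Nipbl* encodes a protein that loads cohesin onto chromatin and *Wapl* one that releases it, and the crosses asked whether lowering *Wapl* alters what happens in *Nipbl*+/- animals. The delta allele lacks the *Wapl* promoter and first exons. It was made by crossing floxed mice to *E2a-Cre* mice and was then inherited through backcrosses. The *Nipbl*- allele arose in sires by recombination of a floxed allele under *Stra8-icre*, which acts in male germ cells. All cells of a mutant embryo therefore carried the same heterozygous genotype, and no brain region or cell type was separated.

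Contactins are tethered to the outer face of the cell membrane by a glycolipid anchor. They bind other adhesion molecules and receptors on the same or on neighbouring cells. The contactin-associated proteins (Caspr proteins) span the membrane, and their intracellular ends attach to scaffold proteins of the axonal cytoskeleton. Together they are best known for building the domains that flank nodes of Ranvier in myelinated axons, and in the embryonic brain, before most myelin forms, for axon guidance, fasciculation and synapse formation.

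The targeted transcripts followed the genotypes in every library. Normalized counts (reads scaled by TMM, the trimmed mean of M-values, to a common library size) of *Nipbl* ran from 2019 to 2402 in *WT* and from 1104 to 1287 in *Nipbl*+/-, at 54.3 ± 4.5% of the *WT* mean (SD, n = 3). Double heterozygotes had *Nipbl* at 54.8 ± 1.8% (n = 6), and *Wapl* was at 46.7 ± 4.5% in *Wapl* delta/+ (n = 7). Libraries also differed in a way the groups did not explain: 9 held 52 to 106 reads of the mitochondrial gene *mt-Nd3* and 12 held 0 to 6, with all 3 *Nipbl*+/- libraries in the low set. In the 13 *Wapl*-mutant libraries the sets matched the order in which the labels write the *Wapl* alleles: the 6 written delta/+ were all low and the 7 written +/delta all high. What that order marks was not given in the sources used here. The study bred embryos in 2 crosses: in 1 the dam carried the delta allele and in the other the sire did. Which cross each library came from was not given. Within these groups the *mt-Nd3* set, the allele order and any difference of cross or parent therefore cannot be told apart. Comparisons were also run within the sets, and those values stand beside the calls they change. *Nipbl*+/- replicate 3 stood apart from its group: its chi-square per degree of freedom was 22.2 and 23.8 against replicates 1 and 2, which differed by 7.37, and its 10 most abundant genes took 4.78% of reads, against at most 4.21% elsewhere. Without it 5 of the 10 genes were still called in *Nipbl*+/- against *WT*, all lower. Double heterozygote replicate 5, which had the 4.21%, was at 16.4 to 21.8 against its group mates. The other pairs of that group ran from 4.31 to 17.1.

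Of the 10 genes, 6 passed the test in *Nipbl*+/- brain against *WT*, with *Cntn1*, *Cntn3*, *Cntn5*, *Cntnap4* and *Cntnap5a* lower and *Cntn2* higher. Over all tested genes 11.2% passed (6.96% lower and 4.25% higher), and of the genes whose mean level reached 1 CPM (1 count per 1000000 in the library) 18.6% did; the threshold throughout was a Benjamini-Hochberg adjusted *P* under 0.10 in edgeR's quasi-likelihood test. By edgeR 0 of the 10 passed in *Wapl* delta/+ brain, where 2.22% of all genes and 3.5% of those at 1 CPM or more did, with 3 of the 10 at an unadjusted *P* under 0.05 (*Cntn1*, *Cntn5* and *Cntnap5a*), against 15.6% of all genes, and 0 called by DESeq2. In the double heterozygotes 3 passed, *Cntn1*, *Cntnap4* and *Cntnap5a*, all lower, against 3.28% of all genes, 2.46% in the lower direction and 5.42% of those at 1 CPM or more. The 3 comparisons share the 5 *WT* libraries and are not independent of each other. The median log2 fold change of the 10 genes was -0.25 in *Nipbl*+/-, -0.06 in *Wapl* delta/+ and -0.11 in the double heterozygotes, while the median over all tested genes lay within 0.01 of 0 in each. In whole-brain RNA, fewer cells of a type and less RNA per cell cannot be told apart.

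**Figure D1:**
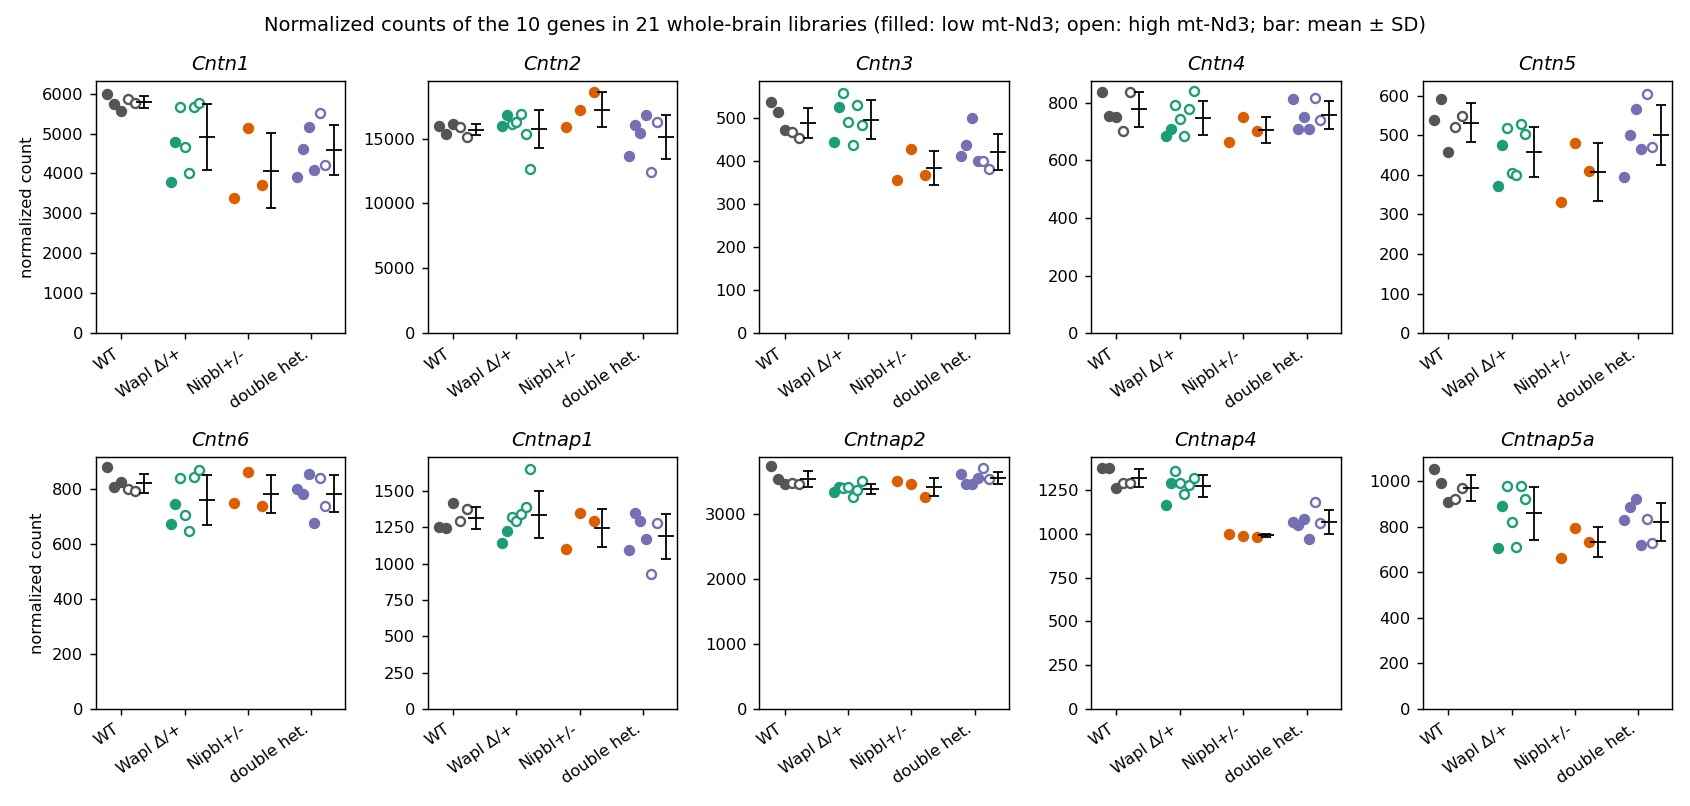
Normalized counts (y axes, starting at 0) of each gene in every library, by genotype (x axes); filled points are libraries of the low and open points of the high *mt-Nd3* set, and bars give the mean and SD. The 3 *Nipbl*+/- libraries lie below every *WT* library for *Cntn1*, *Cntn3*, *Cntnap4* and *Cntnap5a*, and the *Wapl* delta/+ libraries spread widely for *Cntn1* and *Cntnap5a*.

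*Cntn1* (chr15:92051152-92341967, GRCm38.p6) encodes the contactin that pairs with Caspr at paranodes and binds receptor-type phosphatases on glia. Its normalized counts in *WT* were 5989, 5741, 5574, 5870 and 5768, a coefficient of variation of 2.67%. The *Nipbl*+/- libraries read 3382, 5130.0 and 3709, or 70.4 ± 16.1% of the *WT* mean (SD, n = 3). All 3 were below the *WT* range, and replicate 2 stood much nearer to it than replicates 1 and 3. The fitted log2 fold change was -0.51 (SE 0.087, edgeR adjusted *P* = 0.00138), and it ranged from -0.39 to -0.72 when single libraries were left out, with the call kept in all 8 fits. Within the low *mt-Nd3* set (3 against 3 libraries) it was -0.51 with an adjusted *P* of 0.0192.

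In *Wapl* delta/+ brain *Cntn1* ran from 3775 to 5764 with a median of 4795. Replicates 1, 2, 4 and 5 (3775, 4795, 4666 and 4008) were below every *WT* library, and replicates 3, 6 and 7 (5676, 5662 and 5764) were inside the *WT* range. The fold change of -0.23 (SE 0.081) did not pass (edgeR adjusted *P* = 0.167). It did pass without replicate 3 (-0.27, adjusted *P* = 0.0999), replicate 6 (-0.27, adjusted *P* = 0.0971) or replicate 7 (-0.28, adjusted *P* = 0.0908), each from the same test. In the low *mt-Nd3* set (2 against 3 libraries) it was -0.43 with an edgeR adjusted *P* of 0.0963, and in the high set (5 against 2) -0.17 with 0.738.

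The double heterozygotes held *Cntn1* at 3919 to 5504 (median 4422), at 79.3 ± 10.9% of the *WT* mean (n = 6), all 6 below the lowest *WT* library. The log2 fold change was -0.32 (SE 0.071, edgeR adjusted *P* = 0.0216), -0.36 within the low *mt-Nd3* set (4 against 3, adjusted *P* = 0.0124) and -0.24 within the high set (2 against 2, adjusted *P* = 0.814). A fit of all 4 groups together, which shares 1 estimate of the spread, did not keep this call. The order of group means for *Cntn1* was *WT*, *Wapl* delta/+, double heterozygote, *Nipbl*+/-, and no pair of neighbours in that order differed by the test.

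*Cntn5* (chr9:9634223-10904775) encodes a contactin of auditory and other sensory circuits. *WT* libraries read 538, 592, 458, 521 and 548 normalized counts, and *Nipbl*+/- libraries 332, 480.1 and 409. Replicate 2 of *Nipbl*+/- lay inside the *WT* range, so the groups overlapped. The log2 fold change of -0.39 (SE 0.097, edgeR adjusted *P* = 0.018) rested on replicate 1, without which it was -0.26 with an adjusted *P* of 0.126. The call was also lost in the fit of all 4 groups, and within the low *mt-Nd3* set it was -0.38 (3 against 3, adjusted *P* = 0.0972).

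Double heterozygous libraries ran from 394 to 604 for *Cntn5* (median 485), at 94.1 ± 14.2% of the *WT* mean, with replicate 5 above all *WT* libraries and replicate 1 below them. Against *WT* the fold change was -0.07 (95% interval -0.26 to 0.11, edgeR adjusted *P* = 0.791). *Wapl* delta/+ libraries ran from 372 to 529 (median 475), with a fold change of -0.21 (SE 0.082, adjusted *P* = 0.217 in the same test). *Cntn5* thus sat at different places in the 2 *Nipbl* mutant groups, 407 ± 74.1 and 500 ± 75.7 normalized counts, but their direct comparison (0.30 on the log2 scale, 95% interval 0.03 to 0.57) did not pass, with an edgeR adjusted *P* of 0.971.

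*Cntn3* (chr6:102163304-102564614), which encodes a contactin of forebrain and cerebellar neurons, was lower in *Nipbl*+/-, with a log2 fold change of -0.35 (SE 0.076, edgeR adjusted *P* = 0.00685). Its *WT* values were 537, 512, 470.2, 467 and 453 normalized counts and its *Nipbl*+/- values 355, 428 and 367. The groups did not overlap, and the call held in all 8 fits that left out 1 library and within the low *mt-Nd3* set (-0.41, adjusted *P* = 0.0185).

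*Wapl* delta/+ libraries ran from 436 to 557 for *Cntn3* (median 490.4), around the *WT* range, with a fold change of 0.03 (95% interval -0.10 to 0.16). This sign turned in the low *mt-Nd3* set (-0.06). The double heterozygotes ran from 381 to 498 (median 405), where only replicate 3 lay inside the *WT* range. That fold change of -0.20 (SE 0.067) had an edgeR adjusted *P* of 0.151, which fell to 0.018 without replicate 3 (-0.26) and to 0.0900 with a term for the *mt-Nd3* set (-0.21). Of the 9 libraries with 1 intact copy of *Nipbl*, 7 were below all 12 libraries with both copies. The ranges still overlapped, at 355 to 498 and 436 to 557.

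*Cntn4* and *Cntn6*, whose products take part in the wiring of olfactory, visual and cerebellar circuits, lie beside *Cntn3* on chromosome 6 (chr6:105677632-106700141 and chr6:104492662-104863406). Neither passed in any comparison. In *Nipbl*+/- the log2 fold change of *Cntn4* was -0.15 (SE 0.063, edgeR adjusted *P* = 0.19) and that of *Cntn6* -0.07 (SE 0.057, adjusted *P* = 0.532). Without *Nipbl*+/- replicate 2 both passed the same test, at -0.20 (adjusted *P* = 0.067) and -0.15 (adjusted *P* = 0.0715).

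The *WT* libraries ran from 702 to 839 normalized counts for *Cntn4* and from 793 to 880.4 for *Cntn6*, and in both genes all other groups overlapped them. *Cntn6* was lowest in the *Wapl* delta/+ group, at 648 to 872 with a median of 745, where replicates 1, 2, 4 and 5 lay below all *WT* libraries as they did for *Cntn1*. Its fold change there was -0.11 (95% interval -0.24 to 0.03). Between *Cntn3* and *Cntn6* on the chromosome stands *Chl1*, an L1-family adhesion gene of the contactins' partner list, which fell by 0.47 on the log2 scale in *Nipbl*+/- (SE 0.068, edgeR adjusted *P* = 0.000406). Along the interval from *Cntn3* to *Cntn4*, *Cntn3* and *Chl1* thus fell in *Nipbl*+/- brain, whereas *Cntn6*, the noncoding *Gm15631* (-0.10, adjusted *P* = 0.744) and *Cntn4* did not pass.

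*Cntn2* (chr1:132509425-132543251) encodes TAG-1, a contactin of growing and myelinated axons that binds Caspr2. It was the only one of the 10 genes that rose, by 0.13 on the log2 scale in *Nipbl*+/- (SE 0.045, edgeR adjusted *P* = 0.0873). *WT* libraries read 15991, 15314, 16099, 15861 and 15112 normalized counts and *Nipbl*+/- libraries 15924, 17216 and 18558. The first of the *Nipbl*+/- libraries lay inside the *WT* range.

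The *Cntn2* call did not hold within the low *mt-Nd3* set (0.12, edgeR adjusted *P* = 0.315), nor without *WT* replicate 2 (0.12, adjusted *P* = 0.169), replicate 4 (0.14, 0.131) or replicate 5 (0.12, 0.197), nor without *Nipbl*+/- replicate 2 (0.13, 0.112) or replicate 3 (0.09, 0.312). It was also lost in the fit of all 4 groups, with replicate number as a block, with a term for the *mt-Nd3* set and at a threshold of 0.05. *Wapl* delta/+ libraries ran from 12667 to 16910 (median 16148) and double heterozygotes from 12445 to 16790.2 (median 15736). Both groups straddled the *WT* range. *Wapl* delta/+ replicate 7 (12667) and double heterozygote replicates 5 (12445) and 1 (13682) lay well below the lowest *WT* library. The fold changes of 0.01 and -0.04 did not pass (edgeR adjusted *P* = 0.961 and 0.821).

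*Cntnap4* (chr8:112569798-112882707) encodes Caspr4, known from interneuron and dopaminergic synapses, and among the genes that fell it showed the least scatter between *Nipbl*+/- libraries. The *Nipbl*+/- libraries read 1000.1, 988 and 985 normalized counts, against 1374, 1379, 1262, 1289 and 1293 in *WT*. All 3 were well below the *WT* range, at 75.1 ± 0.6% of the *WT* mean. Their coefficient of variation was 0.778%, against 4.05% in *WT*, 4.87% in *Wapl* delta/+ and 6.31% in double heterozygotes. A spread taken from 3 libraries is a loose estimate. The log2 fold change was -0.42 (SE 0.045, edgeR adjusted *P* = 4.11e-05), the smallest adjusted *P* of the 10 genes in any comparison, and the call held in all 17 alternative fits of this comparison, -0.44 within the low *mt-Nd3* set included (adjusted *P* = 0.00143).

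The double heterozygotes held *Cntnap4* at 973 to 1183 (median 1065), again below every *WT* library, at 81.1 ± 5.1% of the *WT* mean. Their fold change was -0.29 (SE 0.048, edgeR adjusted *P* = 0.0028), -0.35 in the low *mt-Nd3* set (adjusted *P* = 0.00279) and -0.18 in the high set (2 against 2, adjusted *P* = 0.814). *Wapl* delta/+ libraries ran from 1167 to 1357 (median 1289) and overlapped *WT*, with a fold change of -0.04 (95% interval -0.13 to 0.04, adjusted *P* = 0.641) that was 0.01 in the high *mt-Nd3* set. Of the 9 libraries with 1 copy of *Nipbl*, 8 were below all 12 with both copies. The exception was replicate 5 of the double heterozygotes (1183), just above replicate 1 of *Wapl* delta/+ (1167). *Cntn3* had 7 such libraries, and the other genes had from 0 (*Cntn6*) to 3 (*Cntnap1*). The ranges for 1 and 2 copies overlapped in every one of these genes, and were apart for 0.311% of all tested genes.

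*Cntnap5a* (chr1:115684737-116587323) belongs to a rodent group of Caspr5 genes that are expressed in restricted sets of neurons. Its normalized counts were 1056, 994, 910.1, 923 and 971 in *WT* and 665, 797 and 734 in *Nipbl*+/-. The ranges were apart, and the log2 fold change of -0.41 (SE 0.062, edgeR adjusted *P* = 0.000496) kept its call in all 17 alternative fits. Double heterozygotes ran from 721 to 924 (median 832) and 1 library, replicate 3, reached into the *WT* range. Their fold change of -0.23 (SE 0.062, adjusted *P* = 0.0617 in edgeR) was near the threshold.

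That call of *Cntnap5a* in the double heterozygotes was lost without any 1 of 7 libraries: *WT* replicate 1 (-0.20, edgeR adjusted *P* = 0.182), replicate 2 (-0.23, 0.133), replicate 4 (-0.25, 0.105) or replicate 5 (-0.24, 0.108), or double heterozygote replicate 1 (-0.23, 0.113), replicate 4 (-0.20, 0.146) or replicate 6 (-0.20, 0.114). It was also lost within the low (-0.22, adjusted *P* = 0.168) and the high (-0.26, 0.814) *mt-Nd3* set. In *Wapl* delta/+ brain *Cntnap5a* spread from 708 to 981 (median 892), with replicates 1 and 5 lowest, and the fold change of -0.17 (SE 0.072) had an edgeR adjusted *P* of 0.253.

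*Cntnap1* (chr11:101174617-101190724), the Caspr of the paranodal axon, and *Cntnap2* (chr6:45060061-47301393), the Caspr2 that gathers potassium channels beside the paranode, did not pass in any comparison. *Cntnap2* varied little, with *WT* libraries at 3469 to 3751 and the other 16 at 3260.5 to 3712. Its log2 fold changes were -0.06 in *Nipbl*+/- (95% interval -0.14 to 0.02), -0.06 in *Wapl* delta/+ (-0.12 to 0.00) and 0.02 in the double heterozygotes (-0.06 to 0.09).

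*Cntnap1* varied more, from 1244 to 1418 in *WT* and from 931 to 1650.1 in the mutants, with *Wapl* delta/+ replicate 7 highest and double heterozygote replicate 5 lowest. Its fold changes were -0.08 (95% interval -0.21 to 0.05), 0.03 (-0.11 to 0.16) and -0.14 (-0.29 to 0.01) in *Nipbl*+/-, *Wapl* delta/+ and double heterozygous brain. Intervals of these widths bound the change of *Cntnap2* more tightly than that of *Cntnap1*.

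**Figure D2:**
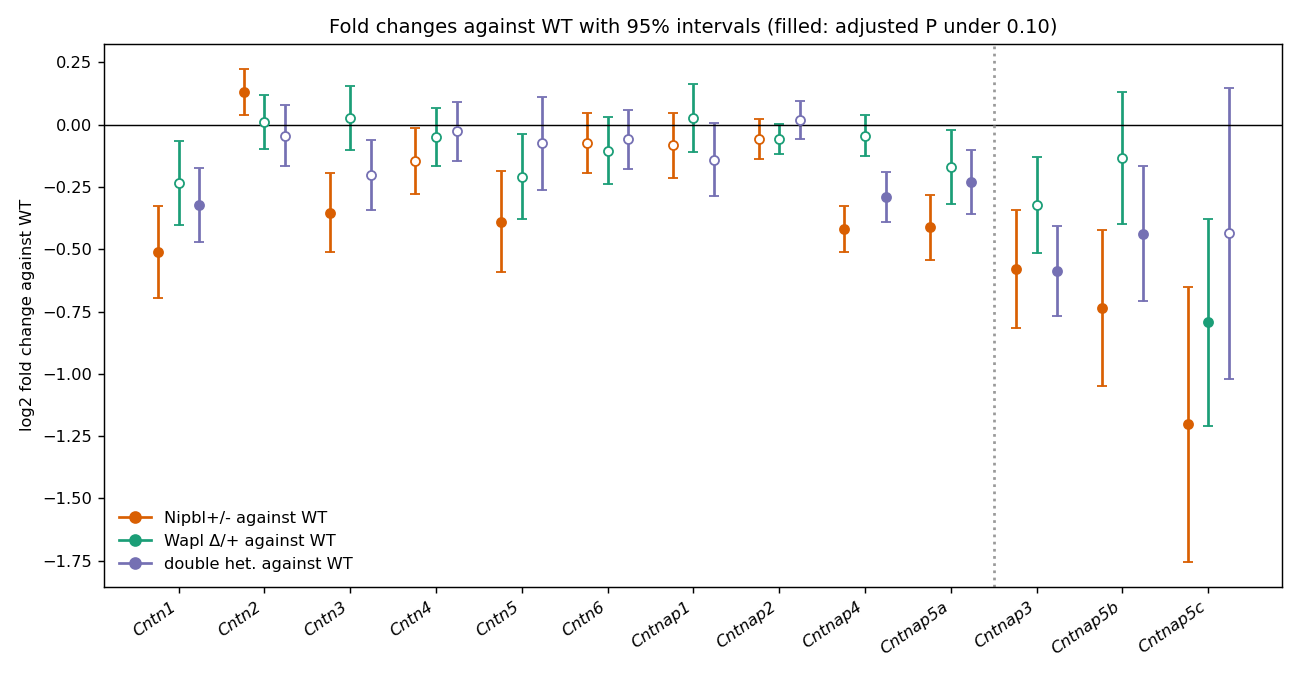
Log2 fold change against *WT* (y axis) with its 95% interval for the 10 genes and, right of the dotted line, 3 further family genes (x axis), in *Nipbl*+/-, *Wapl* delta/+ and double heterozygous brain; filled points passed an adjusted *P* of 0.10. The filled *Nipbl*+/- points of *Cntn1*, *Cntn3*, *Cntn5*, *Cntnap4* and *Cntnap5a* lie between -0.35 and -0.51, and *Cntn2* alone lies above 0 at 0.13.

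Of the 10 genes, 4 had *Nipbl*+/- and *WT* libraries that did not overlap, in a comparison where 13.4% of all tested genes did not. Double heterozygotes did not overlap with *WT* for *Cntn1* and *Cntnap4*, against 2.76% of all genes. Set directly against *Wapl* delta/+ brain, *Cntnap4* was lower in *Nipbl*+/- (log2 fold change -0.36, SE 0.050, edgeR adjusted *P* = 0.00218) and in the double heterozygotes (-0.25, SE 0.046, adjusted *P* = 0.0124). *Cntn3* was lower in *Nipbl*+/- than in *Wapl* delta/+ (-0.37, SE 0.085, adjusted *P* = 0.0611 in edgeR). These were the 2 genes of 10 called in the first of these comparisons, where 1.16% of all genes were called and 3.69% did not overlap, and the 1 of 10 called in the second, where 1.02% were.

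Neither of the 2 genes kept its *Nipbl*+/- against *Wapl* delta/+ call within the low *mt-Nd3* set, where 3 libraries met 2: *Cntnap4* was at -0.31 (edgeR adjusted *P* = 0.577) and *Cntn3* at -0.33 (adjusted *P* = 0.931). The double heterozygote against *Wapl* delta/+ difference of *Cntnap4* was -0.23 in the low set (4 against 2, adjusted *P* = 0.445) and -0.20 in the high set (2 against 5, adjusted *P* = 0.506), where neither passed edgeR's test. The *Cntn3* call was also lost without *Wapl* delta/+ replicate 3 (-0.34, adjusted *P* = 0.119), replicate 6 (-0.35, 0.118), or *Nipbl*+/- replicate 1 (-0.32, 0.299) or replicate 3 (-0.33, 0.394). For *Cntn3* the difference between double heterozygotes and *Wapl* delta/+ was -0.23 with an edgeR adjusted *P* of 0.201, and -0.28 with 0.0629 without double heterozygote replicate 3.

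Whether the second mutation altered the level of these genes in *Nipbl*+/- brain was addressed by comparing double heterozygotes with *Nipbl*+/-. By edgeR 0 of the 10 genes passed, against 0.00655% of all genes, with 2 of the 10 at an unadjusted *P* under 0.05 (*Cntn2* and *Cntn5*), against 4.12% of all genes, and DESeq2 also called 0. All 5 genes that fell in *Nipbl*+/- had a higher mean in the double heterozygotes, and the differences on the log2 scale were 0.18 for *Cntn1* (95% interval -0.09 to 0.44), 0.14 for *Cntn3* (-0.05 to 0.33), 0.30 for *Cntn5*, 0.12 for *Cntnap4* (-0.01 to 0.25) and 0.17 for *Cntnap5a* (-0.01 to 0.35). *Cntn2*, which rose in *Nipbl*+/-, differed by -0.19 (95% interval -0.36 to -0.01, edgeR adjusted *P* = 0.971). The same 3 *Nipbl*+/- libraries had marked these genes as changed and are the reference here. Differences back toward *WT* were therefore favoured by that choice, and their shared direction is not a separate result. These differences depended on single *Nipbl*+/- libraries: without replicate 1 *Cntn1* was at 0.05, *Cntn3* at 0.08, *Cntn5* at 0.17 and *Cntnap5a* at 0.10, without replicate 2 they were at 0.38, 0.23, 0.44 and 0.24, and none passed edgeR's test in either fit. Of the 5 intervals all but that of *Cntn5* held 0, and the 3 *Nipbl*+/- libraries overlapped the double heterozygotes for every gene.

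The *Nipbl* by *Wapl* interaction, the departure of the double heterozygotes from the sum of both single effects on the log2 scale, was likewise called for 0 of the 10 genes and for 0% of all genes by edgeR. The count over all genes was 945 without double heterozygote replicate 6 and 253 without *Wapl* delta/+ replicate 2, with 0 of the 10 called in either. At an unadjusted *P* under 0.05 stood 4 of the 10 and 4221 (13.8%) of all genes, and DESeq2 called 18 genes, none of them among the 10. The terms were 0.49 for *Cntn5* (SE 0.16, edgeR adjusted *P* = 0.204), 0.38 for *Cntn1* (SE 0.16, adjusted *P* = 0.278), 0.31 for *Cntnap5a* (SE 0.12, adjusted *P* = 0.239) and -0.22 for *Cntn2* (SE 0.10, adjusted *P* = 0.325). With single libraries left out the *Cntn1* term ran from 0.27 (without *Nipbl*+/- replicate 1) to 0.62 (without replicate 2) and that of *Cntn2* from -0.27 (without *Nipbl*+/- replicate 1) to -0.14 (without replicate 3, and also without double heterozygote replicate 5). In the low *mt-Nd3* set *Cntnap5a* was at 0.51, and no term of the 10 genes passed in any of these fits.

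**Figure D3:**
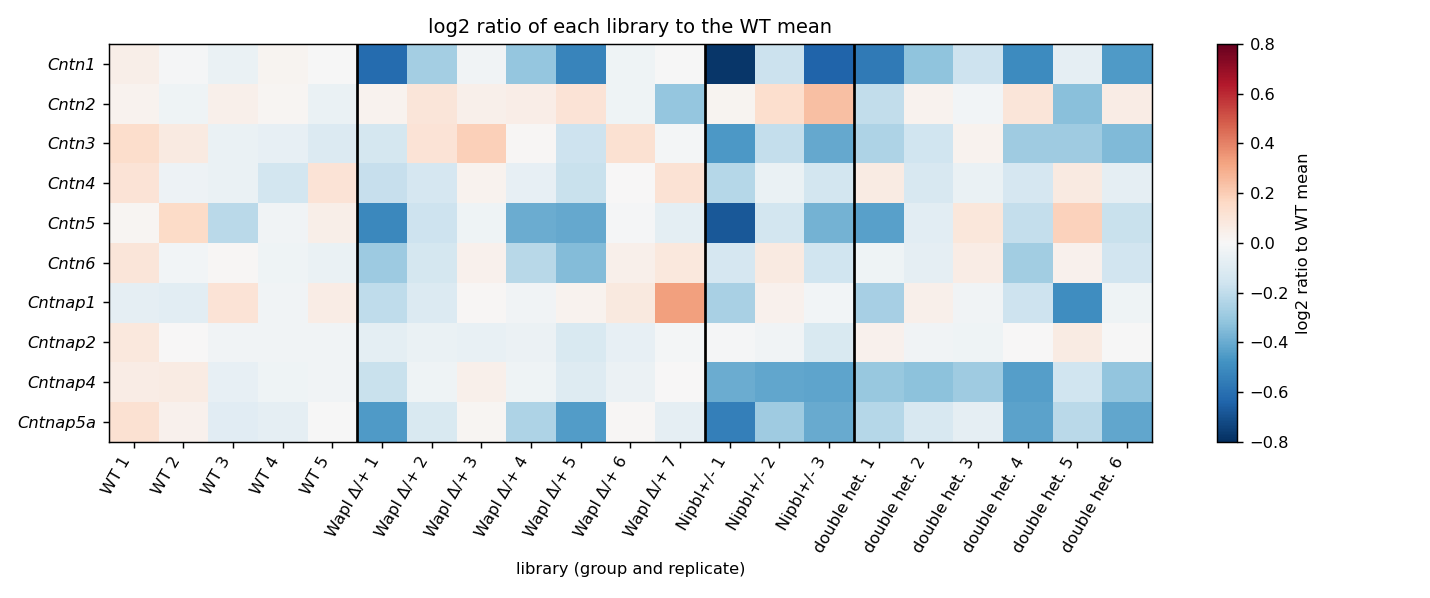
Log2 ratio of each library (x axis, by group and replicate) to the *WT* mean for each gene (y axis); blue is lower and red higher. *Wapl* delta/+ replicates 1 and 5 are blue for most genes, as are *Nipbl*+/- replicates 1 and 3, and *Cntnap4* is blue in all *Nipbl*+/- libraries.

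The number of the 10 genes below every *WT* library differed between libraries of a group. The same number over all tested genes was not taken, so a shift of a whole library cannot be told apart from a shift of these genes. In *Wapl* delta/+ replicate 1, 9 of the 10 genes were below every *WT* library, and in replicate 5, 8 were, but in replicates 3, 6 and 7 only 1 was. Among the *Nipbl*+/- libraries the count was 8 in replicate 1, 4 in replicate 2 and 7 in replicate 3, and among the double heterozygotes it ran from 3 in replicate 3 to 7 in replicate 1. *Cntnap4* departed from this order, being as low in *Nipbl*+/- replicate 2 as in replicates 1 and 3.

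With group means removed, the log2 CPM of the genes correlated across the 21 libraries with a median *r* of 0.443 over 45 pairs. The values shared library, RNA quality and composition, and are given as a description. The highest was *Cntn1* with *Cntn5* (*r* = 0.898), followed by *Cntn6* with *Cntnap5a* (0.878) and *Cntn1* with *Cntn6* (0.859). *Cntn2* ran against most of the others, down to -0.617 with *Cntn4*, and *Cntnap1* was only loosely tied to any.

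**Figure D4:**
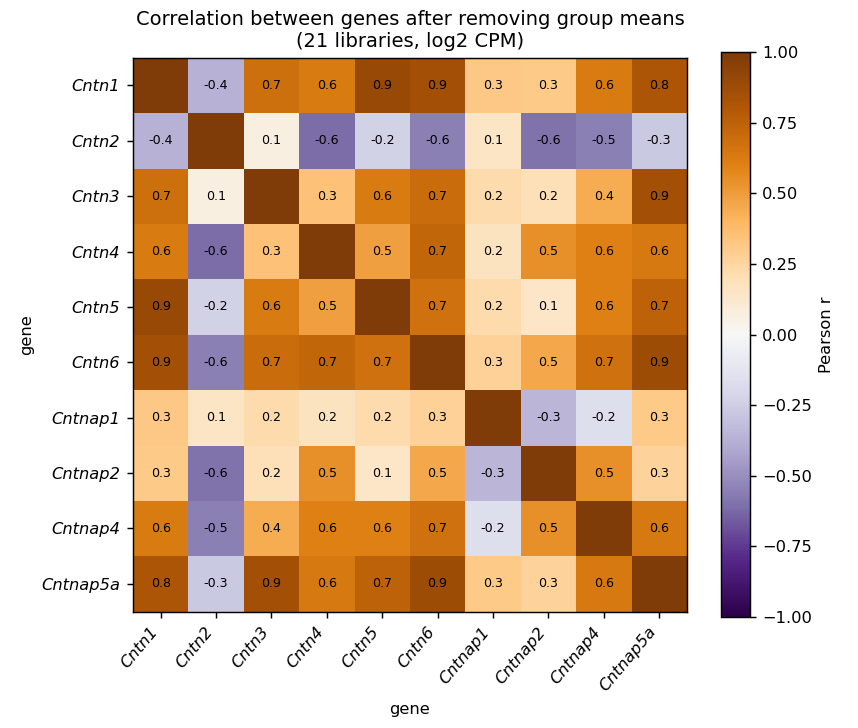
Pearson correlation between the log2 CPM of each pair of genes (both axes) over 21 libraries after removal of the group means. *Cntn1*, *Cntn3*, *Cntn4*, *Cntn5*, *Cntn6*, *Cntnap4* and *Cntnap5a* are positive with each other, from 0.347 to 0.898, and *Cntn2* is negative with most genes.

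Among the 17303 genes at a mean of 1 CPM or more, the pattern most like that of *Cntn1* over the 21 libraries was that of *Aqp4*, the water channel of astrocyte endfeet (*r* = 0.977), then *Thy1* (0.97), a glycolipid-anchored surface protein of neurons, and the bicarbonate transporter *Slc4a4* (0.968). For *Cntn5* it was the protocadherin *Pcdh9* (0.92), for *Cntn3* the ubiquitin ligase subunit *Fbxw7* (0.933) and for *Cntnap5a* the GABA-A receptor subunit *Gabrb1* (0.951). *Cntnap4* was most like the serotonin receptor *Htr1a* (0.943) and *Cntn2* most like *Aff3* (0.898). These correlations hold the group differences as well as the spread within groups.

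Markers of other cell types moved in the same comparison. Over all tested genes 6.96% were lower and 4.25% higher there, and of those at 1 CPM or more 18.6% were called. In *Nipbl*+/- against *WT*, 4 of 6 astrocyte markers were lower, with summed levels of 476 to 573 CPM against 611 to 664 CPM, and 4 of 7 markers of the oligodendrocyte lineage were lower, at 209 to 253 CPM against 265 to 284 CPM. The most lowered of the astrocyte markers was *Aqp4* itself (-0.79 on the log2 scale, edgeR adjusted *P* = 0.00415). Of 9 general neuronal markers 4 were lower (*Snap25*, *Syt1*, *Nefl* and *Nefm*), with a summed level of 5439 to 5847 CPM against 5941 to 6157 CPM, while 3 of 7 progenitor markers were higher, at 375 to 511 CPM against 381 to 419 CPM. Of 7 markers of GABAergic neurons, where *Cntnap4* is known to act, 3 were higher (*Dlx1*, *Dlx2* and *Lhx6*) and 1 was lower (*Sst*), and their summed level was 641 to 690 CPM against 614 to 648 CPM. None of the lists had a marker at 0 in the *Nipbl*+/- or *WT* group. The part of these cell types in the changes of the contactin genes was not tested.

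Double heterozygous brain had 3 of 6 astrocyte markers and 5 of 7 oligodendrocyte-lineage markers lower, at summed levels of 498 to 615 CPM and 215 to 252 CPM, and 1 of 9 neuronal markers was. Over all tested genes 2.46% were lower in double heterozygotes, and 2.22% were called in either direction in *Wapl* delta/+. In *Wapl* delta/+ 0 markers of these 3 lists were called by edgeR or DESeq2; at an unadjusted *P* under 0.05 stood 5 of the 6 astrocyte markers, 1 of the 7 oligodendrocyte-lineage markers and 1 of the 9 neuronal markers, and the astrocyte markers summed to 522 to 678 CPM. Of 5 meningeal markers 3 were higher in *Wapl* delta/+ (2 in DESeq2), at summed levels of 567 to 1014 CPM against 514 to 674 CPM in *WT*, and 1 of 5 pituitary markers was lower by edgeR and 0 by DESeq2. The part of any of these cell types in the spread of *Cntn1* between libraries was not tested.

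Partners of these proteins were followed as 2 lists. Over all tested genes 6.96% were lower and 4.25% higher in *Nipbl*+/-. In *Wapl* delta/+ 2.22% were called in either direction, and in double heterozygotes 2.46% were lower. Of genes at 1 CPM or more, 18.6%, 3.5% and 5.42% were called in these 3 groups. Of 14 contactin partners, mostly adhesion molecules and receptors, 7 were lower and 1 was higher in *Nipbl*+/-, with a median log2 fold change of -0.12. Those with the smallest *P* were the extracellular matrix protein *Tnr* (-0.53, edgeR adjusted *P* = 0.000186), *Chl1*, and the receptor *Notch1*, the 1 that rose (0.33, adjusted *P* = 0.000772). In *Wapl* delta/+ brain 4 of the 14 were lower, led by the matrix protein *Tnc* (-0.16, adjusted *P* = 0.0503), the phosphatase *Ptprz1* that binds *Cntn1* (-0.24, 0.0574) and *Tnr* (-0.20, 0.0907). Double heterozygous brain had 3 lower: *Tnr* (-0.35, edgeR adjusted *P* = 0.0143), *Tnc* (-0.20, 0.037) and *Ptprz1* (-0.24, 0.0531).

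The second list held 10 genes that work with Caspr proteins along the axon, mostly for scaffolds and channels. Of these, 6 were lower in *Nipbl*+/- and none higher, with a median of -0.24. Of all tested genes 6.96% were lower there. The potassium channel gene *Kcna2* (-0.38, edgeR adjusted *P* = 0.000947), the spectrin *Sptbn1* (-0.28, 0.00111) and *Epb41l3*, the band 4.1 scaffold that binds the intracellular end of Caspr proteins (-0.22, 0.00263), had the smallest *P*. In *Wapl* delta/+ 5 of the 10 were lower, among them *Sptbn1* (-0.29, edgeR adjusted *P* = 0.0381), *Ank2* (-0.26) and *Sptan1* (-0.27), the latter pair at the same adjusted *P*. For the double heterozygotes edgeR called 0 of the 10, at a median of -0.13, with 3 at an unadjusted *P* under 0.05 and 1 called by DESeq2.

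The 3 remaining genes of the Caspr family in the table, *Cntnap3*, *Cntnap5b* and *Cntnap5c*, are expressed at lower counts and resemble their relatives in sequence, so reads could have been divided between copies. All 3 were lower in *Nipbl*+/-, where 6.96% of all tested genes were. *Cntnap3* read 379, 279, 320.0, 381 and 362 normalized counts in *WT* and 205, 278 and 211 in *Nipbl*+/- (-0.58, SE 0.11, edgeR adjusted *P* = 0.0035), with the highest *Nipbl*+/- library just below the lowest *WT* library. *Cntnap5b* fell from 141 ± 12.1 to 85.0 ± 23.8 (-0.74, adjusted *P* = 0.00465) and *Cntnap5c* from 56.5 ± 11.6 to 24.7 ± 12.7 (-1.20, adjusted *P* = 0.00795, both edgeR). The *Cntnap5c* call was lost in the fit of all 4 groups (-1.17, edgeR adjusted *P* = 0.101).

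In the double heterozygotes *Cntnap3* ran from 211 to 270.2 with a median of 218, below all *WT* libraries (-0.59, SE 0.086, edgeR adjusted *P* = 0.00118), although not called within the high *mt-Nd3* set. *Cntnap5b* was at -0.44 (edgeR adjusted *P* = 0.0978), a call that was lost without any *WT* library or without double heterozygote replicates 1, 4 or 6 (adjusted *P* up to 0.231 among these fits). It was also lost in the low *mt-Nd3* set (-0.48, edgeR adjusted *P* = 0.205), in the high set (-0.36, 0.814), with a term for the set (-0.44, 0.109), in the fit of all 4 groups (-0.43, 0.208) and with the replicate block (-0.42, 0.148). In *Wapl* delta/+, *Cntnap3* stood just over the threshold (-0.32, edgeR adjusted *P* = 0.101) and *Cntnap5b* did not pass (-0.13, 0.667). DESeq2 called *Cntnap3* (adjusted *P* = 0.0667), as did edgeR without a filter (0.0559), with the replicate block (0.0212) and with the set term (0.0971). *Cntnap3* was not called within the low (0.377) or high (0.227) *mt-Nd3* set or in the fit of all 4 groups (0.184). *Cntnap5c* was called in *Wapl* delta/+ (-0.79, edgeR adjusted *P* = 0.0634) but not without *WT* replicate 1 (0.165), 2 (0.213) or 5 (0.150) or *Wapl* delta/+ replicate 1 (0.103), 4 (0.112) or 5 (0.117) (edgeR adjusted *P* in parentheses). In the low *mt-Nd3* set (2 against 3 libraries) it was at -0.37 (edgeR adjusted *P* = 0.630) and in the high set (5 against 2) at -0.96 (0.0438). The call was lost with a term for the set (-0.68, edgeR adjusted *P* = 0.120) and in the fit of all 4 groups (-0.78, 0.231). *Cntnap5c* did not pass in the double heterozygotes (-0.44, adjusted *P* = 0.542), except without replicate 5 (-0.74, edgeR adjusted *P* = 0.087).

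Most of these genes are long, and span was a property that the choice of genes had not used. Of the 10, 8 spanned more than 250 kb, up to 2241 kb for *Cntnap2*, and 5 of those 8 were lower in *Nipbl*+/-. Of the 686 tested genes of at least 250 kb and 1 CPM, 342 or 49.9% were lower and 12 higher. A share of 5 in 8 is close to that background. The further family genes *Cntnap5b* (718 kb) and *Cntnap5c* (649 kb), both lower, were also longer than 250 kb. The pair of short genes, *Cntn2* (33.8 kb) and *Cntnap1* (16.1 kb), were the 1 that rose and 1 that did not pass, and the longest, *Cntnap2*, did not pass either.

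**Figure D5:**
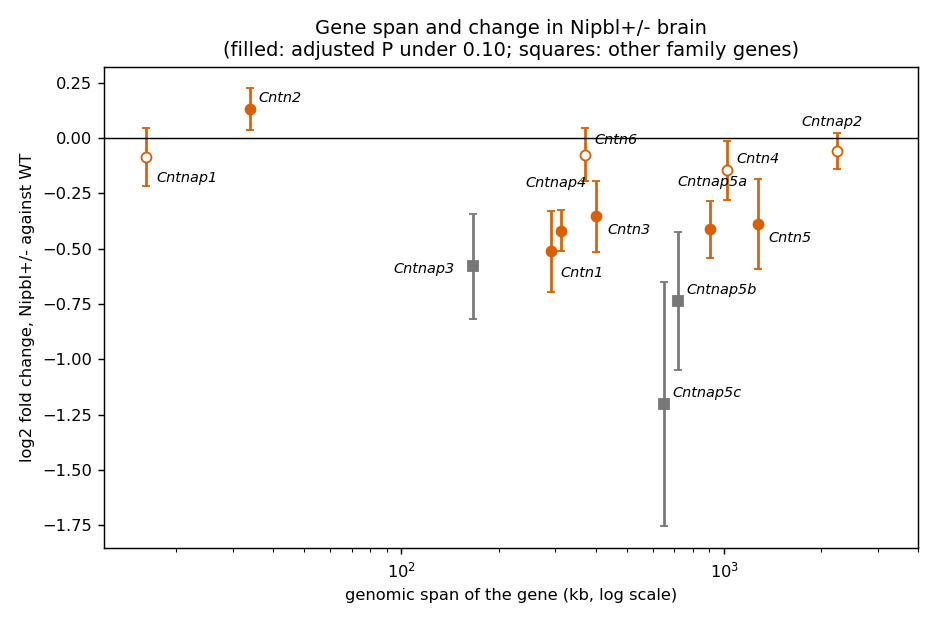
Log2 fold change in *Nipbl*+/- against *WT* (y axis, bars are 95% intervals) by the genomic span of each gene in kb (x axis, log scale), for the 10 genes (circles) and 3 further family genes (squares); filled symbols passed an adjusted *P* of 0.10. The genes that fell span from 166 to 1271 kb, while *Cntnap2* at 2241 kb and *Cntn4* at 1023 kb lie nearer to 0.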

How the data were processed

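The authors deposited raw read counts per gene for 21 libraries. Per the labels and the study's methods, RNA was selected with oligo(dT), read as 101-bp pairs, trimmed with cutadapt 2.4, mapped with STAR 2.5.3a and counted with featureCounts (Subread 1.6.4) on GRCm38. Whether counting used strand, and how it handled reads that fit more than 1 gene, was not given in the sources used here, so sense and antisense reads of overlapping genes cannot be told apart. A further library that the authors excluded was not analysed here.

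Counts were tested in R 4.3.3 with edgeR 4.0.16 (TMM, quasi-likelihood test, libraries of the compared groups only). A gene entered where its normalized counts over all libraries came to at least 10, *P* values were adjusted by Benjamini-Hochberg over all 30552 of them, and 0.10 was the threshold. SD is over libraries, and SE and 95% intervals come from the fit. Scripts were tested on simulated counts. Spans and positions are RefSeq's for GRCm38.p6; lengths of transcripts were not used, so levels of different genes were not compared. Correlations used log2 CPM with a prior count of 2. Raw counts of the 10 genes ran from 329 to 17837 per library and those of the 3 further family genes from 11.

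The genes, partner lists, marker lists and tests were chosen with earlier results of these data known. Named genes are the 10, *Nipbl* and *Wapl*, the 3 other Caspr genes, the 3 called partners of smallest *P* in each list and comparison with *WT*, and the genes of highest *r*; *Chl1*, *Gm15631* and individual markers were named after their values were seen. Markers of the cerebellar granule lineage, meninges, choroid plexus, blood, microglia and pituitary were also examined: in *Nipbl*+/- against *WT*, 0 of 5, 1 (higher) of 5, 0 of 4, 0 of 5, 3 (lower) of 5 and 0 of 5 passed in edgeR (0 in DESeq2 where edgeR gave 0; at an unadjusted *P* under 0.05 were 1 granule-lineage, 0 choroid plexus, 0 blood and 2 pituitary markers), and pituitary markers reached 87.3 CPM in 1 *WT* library. Alternatives were DESeq2 1.42.0 (independent filtering off), other size factors, filters and thresholds, 1 fit of all groups, a replicate block, the *mt-Nd3* sets (divided at 20 counts) and leaving out each library. No 2 libraries of a group agreed within sampling noise (chi-square per degree of freedom from 2.41 to 23.8 over 49 pairs).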

Additional observations from a re-analysis of the deposited data

Results flagged for a closer look

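Within-group gaps were examined for the 13 family genes in the *WT*, *Wapl* delta/+ and double heterozygous groups, 39 groups in all, of which 4 had a highest or lowest library unusually far from its neighbour; about 1 in 20 would by chance. *Cntn2* in *Wapl* delta/+ replicate 7 was at 12667 normalized counts, with the next library at 15329. *Cntnap2* in *WT* replicate 1 was at 3751, with the next at 3550.2. *Cntnap3* in double heterozygote replicate 3 was at 270.2, with the next at 232. *Cntnap5c* in *Wapl* delta/+ replicate 2 was at 60.7, with the next at 30.7. Groups of 3, which include *Nipbl*+/-, were not examined in this way.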

How the results depend on the processing

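Counts of called genes among the 10 moved as follows. With the replicate block, *Wapl* delta/+ against *WT* gave 4 (*Cntn1*, *Cntn5*, *Cntn6* and *Cntnap5a*, all lower) and double heterozygote against *Nipbl*+/- gave 1 (*Cntn2*); the other replicate block counts were 5 in *Nipbl*+/- and 2 in double heterozygotes against *WT*, 1 and 2 in the double heterozygote and *Nipbl*+/- comparisons with *Wapl* delta/+, and 0 for the interaction. Same-numbered libraries shared only a number: their deviations correlated between -0.206 and 0.366. In the low *mt-Nd3* set *Wapl* delta/+ against *WT* gave 1, and both comparisons with *Wapl* delta/+ gave 0; in the high set double heterozygotes gave 0 against *WT* and 0 against *Wapl* delta/+; a term for the set left 0 for *Nipbl*+/- against *Wapl* delta/+, where a threshold of 0.05 left 1. The fit of all 4 groups gave 4 in *Nipbl*+/- against *WT*, where *Cntn2* and *Cntn5* were lost and 1658 of all 30552 genes were called. It gave 1 in double heterozygotes against *WT* and 2 against *Wapl* delta/+. Leaving out single libraries gave 0 to 1 for *Wapl* delta/+ against *WT*, 1 to 2 for each comparison with *Wapl* delta/+, 5 to 7 for *Nipbl*+/- and 2 to 4 for double heterozygotes against *WT*, and 0 for the rest. DESeq2, its size factors in edgeR and other filters moved none of these counts by over 1.5 times. Counts over all genes moved more when single libraries were left out: 1828 (without *Nipbl*+/- replicate 1) to 4788 of 3422 in *Nipbl*+/-, 9 (without *WT* replicate 2) to 1534 of 677 in *Wapl* delta/+ and 454 (without *WT* replicate 4) to 2504 of 1001 in double heterozygotes, 69 (without *Nipbl*+/- replicate 3) to 600 of 354 in *Nipbl*+/- against *Wapl* delta/+, 163 (without *Wapl* delta/+ replicate 3) to 449 of 311 in double heterozygotes against *Wapl* delta/+, and 0 to 945 (without double heterozygote replicate 6) of 0 for the interaction.

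Among the 10 genes, signs turned only for values that were not called. Of the further family genes, *Cntnap5c* turned from 0.35 to -0.27 (low set), not called in either, in double heterozygotes against *Wapl* delta/+, and *Cntnap3* from -0.02 to 0.02 (replicate block) and 0.14 (without *Nipbl*+/- replicate 2) in double heterozygotes against *Nipbl*+/-, also not called. In *Nipbl*+/-, *Cntnap1* ran from -0.15 to 0.0033 with single libraries left out, turning without *Nipbl*+/- replicate 1; in *Wapl* delta/+ it was at -0.054 (replicate block), -0.14 (low set) and -0.024 (set term), and ran from -0.032 (without replicate 7) to 0.061. In *Wapl* delta/+, *Cntn3* was at -0.063 (low set) and ran from -0.0053 (without replicate 3) to 0.059, *Cntnap4* at 0.0058 (high set), and *Cntn2* at -0.0016 (high set) and from -0.012 to 0.053, below 0 without *WT* replicate 2 or 5 or *Wapl* delta/+ replicate 2, 4 or 5. In double heterozygotes *Cntnap2* was at -0.015 (low set), *Cntn4*, *Cntn5* and *Cntn6* at 0.032, 0.026 and 0.0059 (high set), and *Cntn2* ran from -0.075 to 0.0024 (without replicate 5). The causes were not tested. With 3 *Nipbl*+/- libraries, all low in *mt-Nd3*, no value within the high set exists for that group.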
